A study of Danio rerio with 6 samples.

Results

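The genes described here handle vitamin A and its carotenoid precursors. They are 10 zebrafish genes picked by name, namely bco1, bco1l, rbp2a, rbp2b, rbp4, lrata, dhrs3a, aldh1a2, cyp26a1 and stra6. Earlier results of these data were known when the genes were picked. All 10 were found among the 32053 rows of the count tables, each on 1 row, and all 10 passed the filter on low counts. Expression was measured by RNA sequencing in 6 libraries of wild-type zebrafish at 5 days after fertilization, made from tissue that the labels call intestinal. In the exposed group of 3 libraries, embryos were kept in BP-3 at 2 mg/L, and the other 3 libraries are labelled control. BP-3 is a common short name for the sunscreen ingredient benzophenone-3, which the labels do not write out. The titles of the exposed libraries all read BP-3, whereas their treatment field names BP-3 in replicate 1, BP-4 in replicate 2 and BP-5 in replicate 3, and they were taken as 1 group. The labels give no strain name, no length of exposure, no carrier solvent and no number of embryos per library, so p-values describe the spread between these libraries, which may be technical.

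Vertebrates cannot make vitamin A and take it from the diet, or from the yolk in an embryo, as retinyl esters or as carotenoids such as beta-carotene. In the gut cell a carotenoid is cut into retinal, which is reduced to retinol, bound by a cellular retinol-binding protein and stored as an ester. Retinol leaves the liver on a plasma carrier and enters other cells through a receptor, where it is oxidised in successive steps to retinoic acid, the ligand of nuclear receptors. Retinoic acid induces enzymes that remove it or its precursors. In mammals it also lowers carotenoid uptake and cleavage in the intestine, where it acts through the transcription factor Isx on Scarb1 and Bco1.

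Total counts per library lay between 23567603 and 41726516. The replicate 3 libraries of both groups stood apart from the others on the second principal component, and each had the lowest total of its group. Among the 10 genes, 9 had their lowest BP-3 value in replicate 3 and 7 had their lowest control value in replicate 3. The same count was not made over all tested rows, so it is not read as a trait of the 10 genes. The libraries held gut transcripts together with those of other tissues. All 25 enterocyte markers had counts in every library, and skeletal muscle markers took 8.32 ± 0.368% of counts in BP-3 and 8.73 ± 0.419% in control (SD, n = 3). In such mixed tissue a smaller number of cells of a type and less RNA per cell cannot be told apart.

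Of the 10 genes, 5 rose with exposure at an adjusted p of 0.05 in edgeR's quasi-likelihood test, while 10.6% of all 23167 tested rows passed in either direction, 6.26% as higher and 4.29% as lower. The others did not pass in either direction, nor with DESeq2 or limma-voom, and the single negative estimate, that of dhrs3a, had an unadjusted p of 0.43. The 5 were bco1l, rbp2b, rbp4, aldh1a2 and stra6. They cover carotenoid cleavage, retinol binding inside the cell, transport in plasma, uptake and the synthesis of retinoic acid. The median log2 fold change over the 10 was 0.35, with a range from -0.09 to 1.39, beside a median of -0.00099 over all rows tested. In 7 of the 10 every BP-3 library lay above every control library, against 16.1% of all tested rows. Since the 10 were chosen with earlier results of these data known, such counts are no independent test of the set. With the replicate number as a block, 6 of the 10 passed and rbp2a joined the 5 (adjusted p = 0.0024), while the share of all rows passing rose to 21.7%. The same 6 passed with both replicate 3 libraries left out, where 16.7% of all rows did. The number was 2 (bco1l and rbp2b) when BP-3 replicate 1 was the only exposed library used, where 1.82% of all rows passed. In that fit the spread comes from the controls alone, and the lone exposed library is assumed to vary like them. It was 3 in each of the fits that left out BP-3 replicate 1, BP-3 replicate 2 or control replicate 2, with 5.34%, 4.67% and 5.45% of all rows passing. It was 4 in the fits that left out control replicate 1 or control replicate 3, with 5.36% and 10.6%.

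**Figure D1:**
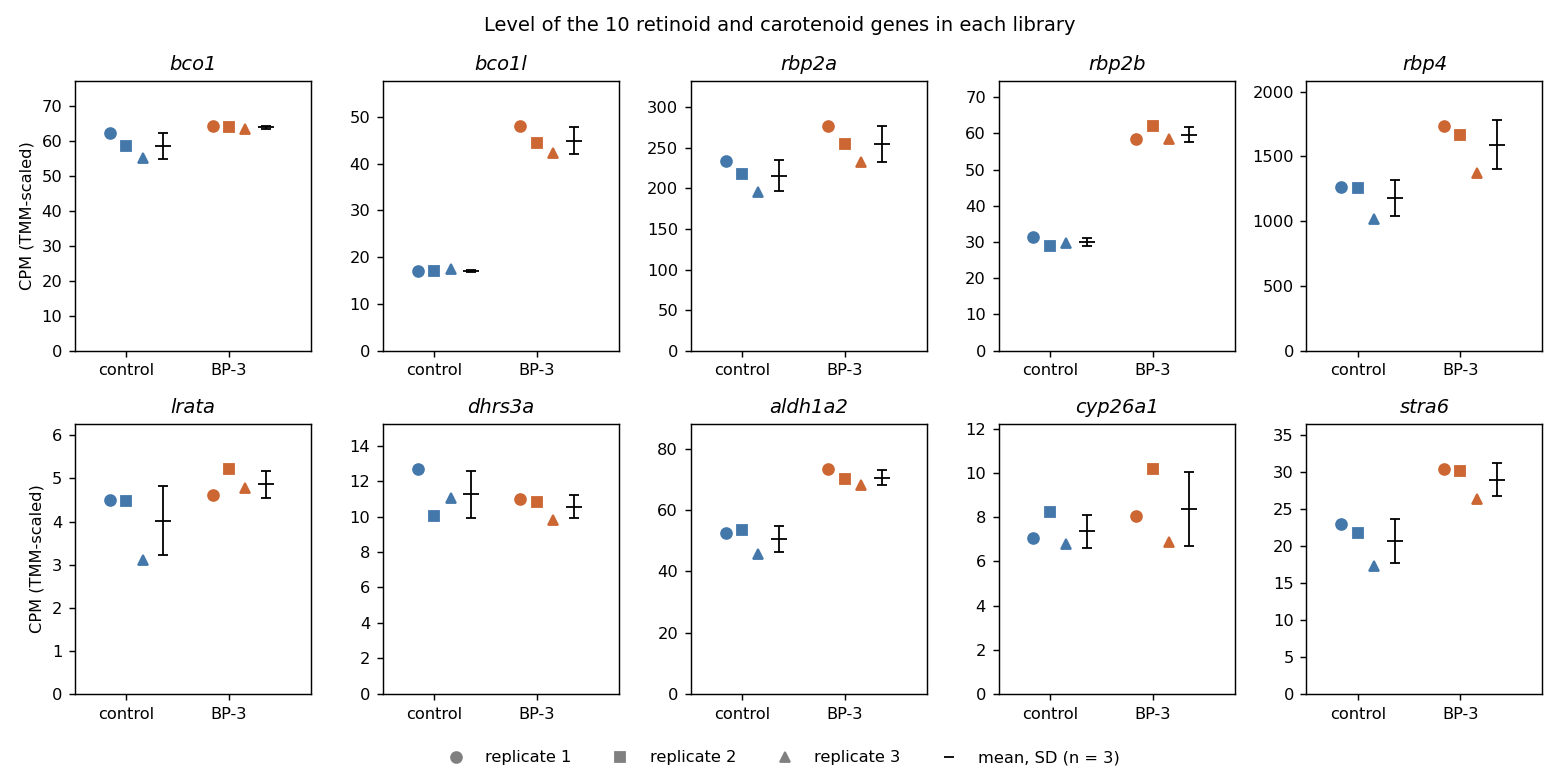
Level of each of the 10 genes in CPM (counts relative to library size, scaled by TMM) in the 3 control and 3 BP-3 libraries, with the mean and SD of each group beside the points and each axis starting at 0. The groups are far apart for bco1l and rbp2b, close but separate for rbp4, aldh1a2, stra6, bco1 and lrata, and overlapping for rbp2a, dhrs3a and cyp26a1.

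Carotenoid cleavage was covered by bco1 and bco1l. The first encodes the oxygenase that cuts beta-carotene symmetrically into retinal. The second encodes a paralogue whose counterpart in salmon also cleaves beta-carotene. In the RefSeq gene table for the assembly GRCz12tu both lie on the same chromosome with 0 entries between them. Expression of bco1l was 48.0, 44.5 and 42.3 CPM in BP-3 replicates 1 to 3 and 17.0, 16.9 and 17.4 CPM in control replicates 1 to 3. CPM stands for counts relative to library size, here scaled by TMM factors. Every exposed library therefore stood well above all controls, and the control values lay within a narrow band. The control SD was 1.37% of the mean, below the 4.87% that counting error alone gives at the lowest count of 421. So narrow a band therefore says little about how steady the expression was. The rise was 2.63-fold, with a log2 fold change of 1.39 ± 0.08 (SE) and a 95% interval from 1.22 to 1.57 (edgeR quasi-likelihood adjusted p = 8.3e-06). Its neighbour bco1 had 64.4, 64.1 and 63.5 CPM in BP-3 and 62.4, 58.5 and 55.1 CPM in control. These groups did not overlap either, but the gap between them was small. For bco1 the log2 fold change was 0.12 ± 0.07 (SE), with an interval from -0.035 to 0.28, which did not pass the threshold (adjusted p = 0.31).

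Whether the neighbouring genes differed in their response was examined from their ratio within each library, which needs no scaling between libraries. For every 100 bco1 counts there were 74.6, 69.4 and 66.5 counts of bco1l in BP-3 replicates 1 to 3. In control replicates 1 to 3 there were 27.3, 29.0 and 31.6. The log2 ratio was higher in BP-3 by 1.26, and the groups did not overlap. An exact two-sided permutation test gave p = 0.1, the smallest that 3 against 3 libraries allow, and 0.15 after adjustment over the 3 pairs examined. Leaving out each library in turn gave a difference between 1.21 and 1.32. If the counting split reads between the paralogues, the ratio would be touched by it, since how reads with several matches were treated is not given in the sources used here.

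Retinol binding inside the cell was covered by rbp2a and rbp2b, which encode cellular retinol-binding proteins of type II. In mammals this protein carries retinol and retinal in the enterocyte. Of this pair, rbp2b had 58.5, 62.0 and 58.4 CPM in BP-3 and 31.3, 28.9 and 29.9 CPM in control. The exposed libraries were all near the same level and no control came close to it. The log2 fold change was 0.99 ± 0.07 (SE), with an interval from 0.83 to 1.15 (edgeR adjusted p = 4.0e-05). The copy rbp2a had 277, 255 and 232 CPM in BP-3 and 234, 218 and 196 CPM in control. Its groups overlapped, because replicate 3 was the lowest in each. With a log2 fold change of 0.24 ± 0.09 (SE) rbp2a did not pass (adjusted p = 0.12). It passed with the replicate block (adjusted p = 0.0024) and with both replicate 3 libraries left out (adjusted p = 0.017).

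Within each library, 100 rbp2a counts stood beside 21.1, 24.3 and 25.1 rbp2b counts in BP-3 replicates 1 to 3 and beside 13.4, 13.3 and 15.2 in control replicates 1 to 3. The ratio thus moved toward rbp2b in all exposed libraries. Its log2 value was 0.75 higher in BP-3 (exact two-sided permutation p = 0.1, the smallest possible, and 0.15 adjusted over the 3 pairs), with 0.70 to 0.83 when single libraries were left out.

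**Figure D2:**
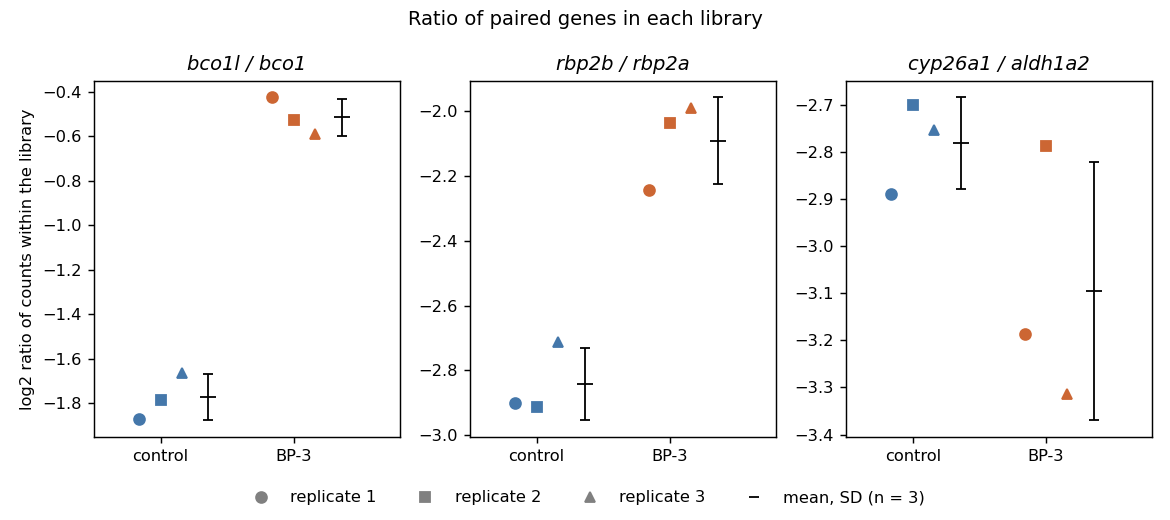
The log2 ratio of counts of paired genes within each library (bco1l over bco1, rbp2b over rbp2a, and cyp26a1 over aldh1a2), with the mean and SD of each group beside the points and axes that do not start at 0. The BP-3 libraries lie above all controls in the panels of bco1l over bco1 and rbp2b over rbp2a, by means of 1.26 and 0.75, and overlap the controls in the panel of cyp26a1 over aldh1a2.

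Storage was covered by lrata, which encodes lecithin retinol acyltransferase, the enzyme that forms retinyl esters. It held the fewest counts of the 10 genes, not corrected for length, with 75 counts in control replicate 3, for which counting error alone gives a 95% Poisson interval from 59.0 to 94.0. Expression of lrata was 4.61, 5.22 and 4.77 CPM in BP-3 and 4.49, 4.48 and 3.10 CPM in control. The groups did not overlap, yet the gap between the lowest exposed and the highest control library was small beside the spread of the controls. The log2 fold change was 0.26 ± 0.17 (SE), with an interval from -0.11 to 0.64 (adjusted p = 0.37), so a rise of the size seen for rbp4 lay inside the interval.

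Transport and uptake were covered by rbp4 and stra6. The first encodes the plasma retinol carrier secreted mainly by the liver, and the second its receptor, best known from the pigment epithelium of the eye. Levels of rbp4 were 1735, 1662 and 1375 CPM in BP-3 and 1266, 1254 and 1016 CPM in control. All exposed libraries exceeded all controls, and replicate 3 was lowest in both groups by a similar proportion. The rise was 1.35-fold (log2 fold change 0.43 ± 0.11 SE, edgeR adjusted p = 0.036, and 2.0e-05 with the replicate block). This call was lost without any one of 5 libraries, all except BP-3 replicate 3 (adjusted p between 0.062 and 0.14), and with BP-3 replicate 1 as the only exposed library (0.11, with a log2 fold change of 0.56).

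Expression of stra6 was 30.4, 30.2 and 26.4 CPM in BP-3 and 23.0, 21.8 and 17.3 CPM in control. Again the groups were separate, with replicate 3 lowest in each. The rise of stra6 was 1.40-fold (log2 fold change 0.49 ± 0.11 SE, edgeR adjusted p = 0.023). It no longer passed when BP-3 replicate 1 (adjusted p = 0.087), BP-3 replicate 2 (0.093) or control replicate 2 (0.056) was left out, or with BP-3 replicate 1 as the only exposed library (0.15, with a log2 fold change of 0.55).

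Retinoic acid synthesis was covered by aldh1a2, which encodes the retinaldehyde dehydrogenase that makes retinoic acid in much of the embryo. Its level was 73.4, 70.3 and 68.3 CPM in BP-3 and 52.6, 53.5 and 45.8 CPM in control. No control library reached the lowest exposed one. The rise was 1.40-fold, with a log2 fold change of 0.48 ± 0.08 (SE) and an interval from 0.30 to 0.66 (edgeR adjusted p = 0.0051). It did not pass with BP-3 replicate 1 as the only exposed library (adjusted p = 0.079, with a log2 fold change of 0.54).

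The enzymes that act against retinoic acid signalling did not pass. The hydroxylase gene cyp26a1, whose product breaks down retinoic acid and which retinoic acid itself induces, had 8.05, 10.2 and 6.86 CPM in BP-3 and 7.08, 8.22 and 6.77 CPM in control. Its groups overlapped, and BP-3 replicate 2 was the highest of all. With a log2 fold change of 0.19 ± 0.16 (SE) and an interval from -0.16 to 0.54, neither a small fall nor a rise like that of aldh1a2 lay outside the interval (adjusted p = 0.49). The reductase gene dhrs3a, whose product turns retinal back into retinol and which is also induced by retinoic acid, had 10.99, 10.8 and 9.79 CPM in BP-3 and 12.7, 10.04 and 11.03 CPM in control. It was the single gene of the 10 with a negative estimate (-0.09 ± 0.12 SE on the log2 scale, adjusted p = 0.66). Its interval, from -0.35 to 0.16, did not reach the estimate of aldh1a2.

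Set against each other within a library, 100 counts of aldh1a2 stood beside 10.99, 14.5 and 10.1 counts of cyp26a1 in BP-3 and beside 13.5, 15.4 and 14.8 in control. The ranges overlapped because BP-3 replicate 2 lay among the controls. The log2 ratio of breakdown to synthesis gene was lower in BP-3, by a mean difference of -0.31 (exact two-sided permutation p = 0.2, unchanged by adjustment over the 3 pairs). This difference lay between -0.47 and -0.21 when single libraries were left out.

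A wider set of 93 genes of the same pathway was read from the same test, grouped by role, and 92 passed the count filter. Of these, 12 rose and 3 fell with a median log2 fold change of 0.01, where 6.26% of all tested rows rose and 4.29% fell. With the replicate block 16 rose and 10 fell, where 21.7% of all rows passed, and with both replicate 3 libraries left out 15 rose and 9 fell, where 16.7% did. The main counts of 12 and 3 became 4 and 2 in the fit that left out BP-3 replicate 2, where 4.67% of all rows passed. They became 7 and 2 in the fits that left out BP-3 replicate 1 or control replicate 1, where 5.34% and 5.36% did. The calls over all rows thus fell in these fits as well. With BP-3 replicate 1 as the only exposed library, the median log2 fold change of the wider set was 0.06. Most members of the wider set were therefore not called. The counts of each pathway list and marker list below stand beside the same shares of all tested rows. These were 10.6% in either direction in the main fit and 21.7% with the replicate block.

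Among 5 other genes of carotenoid and lipid uptake and cleavage 2 rose and the other 3 did not pass. The lipoprotein receptor gene scarb1, whose product takes up carotenoids, had 41.9, 46.5 and 47.7 CPM in BP-3 and 24.1, 24.3 and 22.5 CPM in control, a rise of 1.92-fold (edgeR adjusted p = 0.00011). In mammals Scarb1 is repressed together with Bco1 when retinoic acid is plentiful. Here scarb1 and bco1l rose, while bco1 did not pass. Whether such regulation had a part in these rises was not tested. The gene bco2l, of the family that cuts carotenoids asymmetrically, rose 1.36-fold (adjusted p = 0.042). Its relatives bco2a and bco2b did not pass, at 0.01 ± 0.12 and -0.30 ± 0.35 (SE) on the log2 scale.

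Of 14 genes of retinoid binding and transport 2 rose and the other 12 did not pass, while 4 rose and 1 fell with the replicate block. The receptor gene stra6l encodes a relative of Stra6 that also takes up retinol from Rbp4 and is known from liver and gut. It had 10.3, 12.3 and 11.1 CPM in BP-3 and 4.82, 7.77 and 4.54 CPM in control, with the groups apart although control replicate 2 stood above the other controls. Its rise was 1.96-fold (edgeR adjusted p = 0.011). Transthyretin, which holds Rbp4 in plasma, is encoded by ttr, and its transcript rose 1.82-fold from 15.9 ± 1.72 to 29.0 ± 3.42 CPM (SD, n = 3, edgeR adjusted p = 0.0012). The cellular retinoic acid-binding genes crabp2a and crabp2b stood at 0.25 ± 0.11 and 0.18 ± 0.12 (SE) on the log2 scale without passing, although crabp2a passed with the replicate block (adjusted p = 0.030).

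Of 12 genes that form or release retinyl esters 2 rose and the other 10 did not pass. With the replicate block 2 rose and 3 fell. The 3 were the lipase genes lpl, cel.1 and cel.2, named after their values were seen. Their log2 fold changes were -0.23, -0.20 and -0.30 (edgeR adjusted p = 0.0047, 0.0081 and 0.0015). Exocrine pancreas markers, described below, had a median log2 fold change of -0.37, and the part of tissue share in these falls was not tested. The visual cycle isomerase gene rpe65a rose 1.70-fold (edgeR adjusted p = 0.0057), and the hepatic lipase gene lipca rose 1.79-fold (adjusted p = 0.025). Among the acyltransferase genes of this list, lratb.1 and dgat1a did not pass, with values of 0.26 ± 0.15 and 0.01 ± 0.08 (SE) on the log2 scale.

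Of 20 tested genes that oxidise or reduce retinol and retinal 3 rose and 2 fell. The short-chain dehydrogenase genes sdr16c5b and dhrs9 rose 1.33-fold and 1.24-fold (edgeR adjusted p = 0.013 and 0.021). The alcohol dehydrogenase gene adh8a was 1.69-fold lower, from 5.53 ± 0.389 to 3.28 ± 0.175 CPM (SD, n = 3, adjusted p = 0.0089), and the retinol dehydrogenase gene rdh14a was 1.48-fold lower (adjusted p = 0.0074). For rdh10b, whose product makes retinal from retinol, the log2 fold change was 0.24 ± 0.11 (SE) without passing. The saturase gene retsat had 0.25 ± 0.08 (SE) and passed with the replicate block (adjusted p = 0.065 without it and 0.016 with it).

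Of the 4 further genes listed for retinoic acid synthesis and breakdown, the aldehyde dehydrogenase gene aldh8a1 rose 1.44-fold (edgeR adjusted p = 0.012). Whether its product makes retinoic acid in this tissue was not measured. Both aldh1a3 and cyp26b1 stayed within their errors, at log2 fold changes of 0.06 ± 0.15 and -0.03 ± 0.09 (SE). Of 10 retinoic acid and retinoid X receptor genes 1 rose, rxrab, from 2.60 ± 0.611 to 5.01 ± 0.267 CPM (SD, n = 3, adjusted p = 0.010). The receptor genes raraa and rxraa had log2 fold changes of -0.13 ± 0.09 and -0.03 ± 0.10 (SE).

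Of 27 genes known to answer to retinoic acid, mainly of the Hox clusters, 1 rose and 1 fell, with a median log2 fold change of -0.04, a share near that of all tested rows. With the replicate block 1 rose and 4 fell, again near the share of all rows. The orphan receptor gene nr2f5 rose 1.31-fold (edgeR adjusted p = 0.034), and nrip1b, which encodes a corepressor of nuclear receptors, was 1.25-fold lower (adjusted p = 0.023). Of the Hox genes, hoxd3a had the lowest estimate, at -0.60 ± 0.24 (SE, adjusted p = 0.15, and 0.046 with the replicate block), and it was named after its values were seen.

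**Figure D3:**
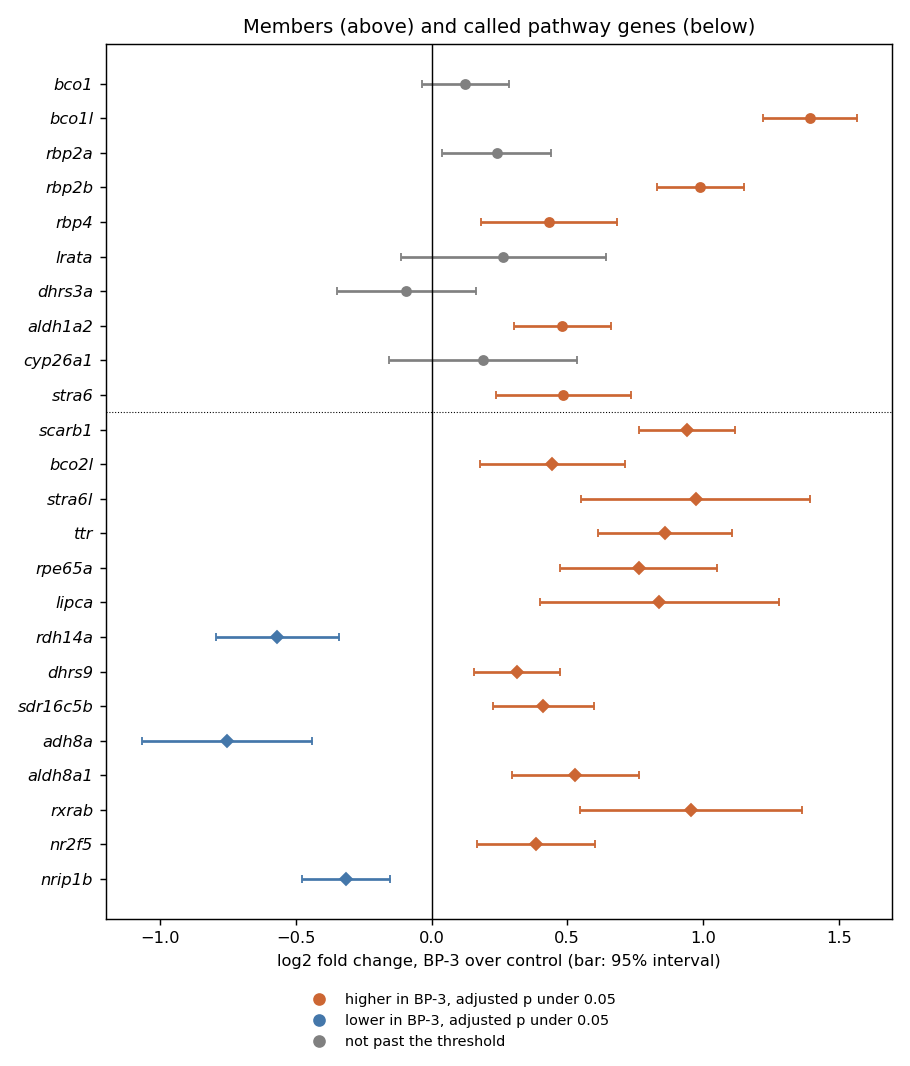
The log2 fold change of BP-3 over control with its 95% interval for the 10 genes (circles, above the dotted line) and for the called genes of the wider pathway lists (diamonds, up to 4 per list, taken by smallest adjusted p), coloured by whether the gene passed an adjusted p of 0.05. The estimate of bco1l is the highest at 1.39, and that of adh8a the lowest at -0.75.

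Markers listed for gut and liver cells moved with these results. Which cells expressed each marker was not measured, so the shares describe the listed genes and not numbers of cells. Enterocyte markers took 1.42 ± 0.0215% of counts in BP-3 and 1.02 ± 0.0323% in control (SD, n = 3), a ratio of 1.40, and all exposed libraries were above all controls. The median of the 25 markers moved less than their sum. Its log2 fold change, 0.21, was below the estimates of rbp4, aldh1a2 and stra6. Single markers ranged from -0.55 to 0.92. Of the 25 markers 9 rose and 2 fell, where 6.26% of all tested rows rose and 4.29% fell. The most abundant, apobb.1, with 35.6% of the summed counts, rose 1.51-fold (edgeR adjusted p = 0.0013). Hepatocyte markers took 0.790 ± 0.0374% and 0.494 ± 0.0227% (SD, n = 3), a ratio of 1.60, with 14 of 21 higher and 1 lower. Their median log2 fold change was 0.44, close to that of rbp4, and the most abundant, apoa2, with 31.6% of the summed counts, rose 1.77-fold (adjusted p = 0.0010). Markers of the pigment epithelium of the eye and of pigment cells took 0.0355 ± 0.00175% and 0.0295 ± 0.00119%, with 4 of 14 higher. Their share was also higher in every exposed library than in any control. That list shares rpe65a and rlbp1b with the wider pathway set.

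The shares of other tissues were level or lower. Retina and lens markers took 0.753 ± 0.0229% in BP-3 and 0.845 ± 0.0326% in control (SD, n = 3), with 6 of 21 lower. For epidermis the shares were 2.35 ± 0.0382% and 2.64 ± 0.0437%, with 4 of 16 lower, and for exocrine pancreas 1.05 ± 0.135% and 1.32 ± 0.165%, with 4 of 14 lower. Stellate and gut mesenchyme markers took 0.480 ± 0.0248% and 0.493 ± 0.0116%, with 1 of 16 higher. The 16 skeletal muscle markers had log2 fold changes between -0.23 and 0.13. The most abundant markers of these lists and of the pigment list (opn1sw1, krt4, prss59.2, col1a1a, actc1b and pmela) had log2 fold changes between -0.25 and 0.21, none past the threshold. No marker was at 0 in any library. The part of tissue share in the rises of the retinoid genes was not tested beyond the ratios to these markers within each library.

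**Figure D4:**
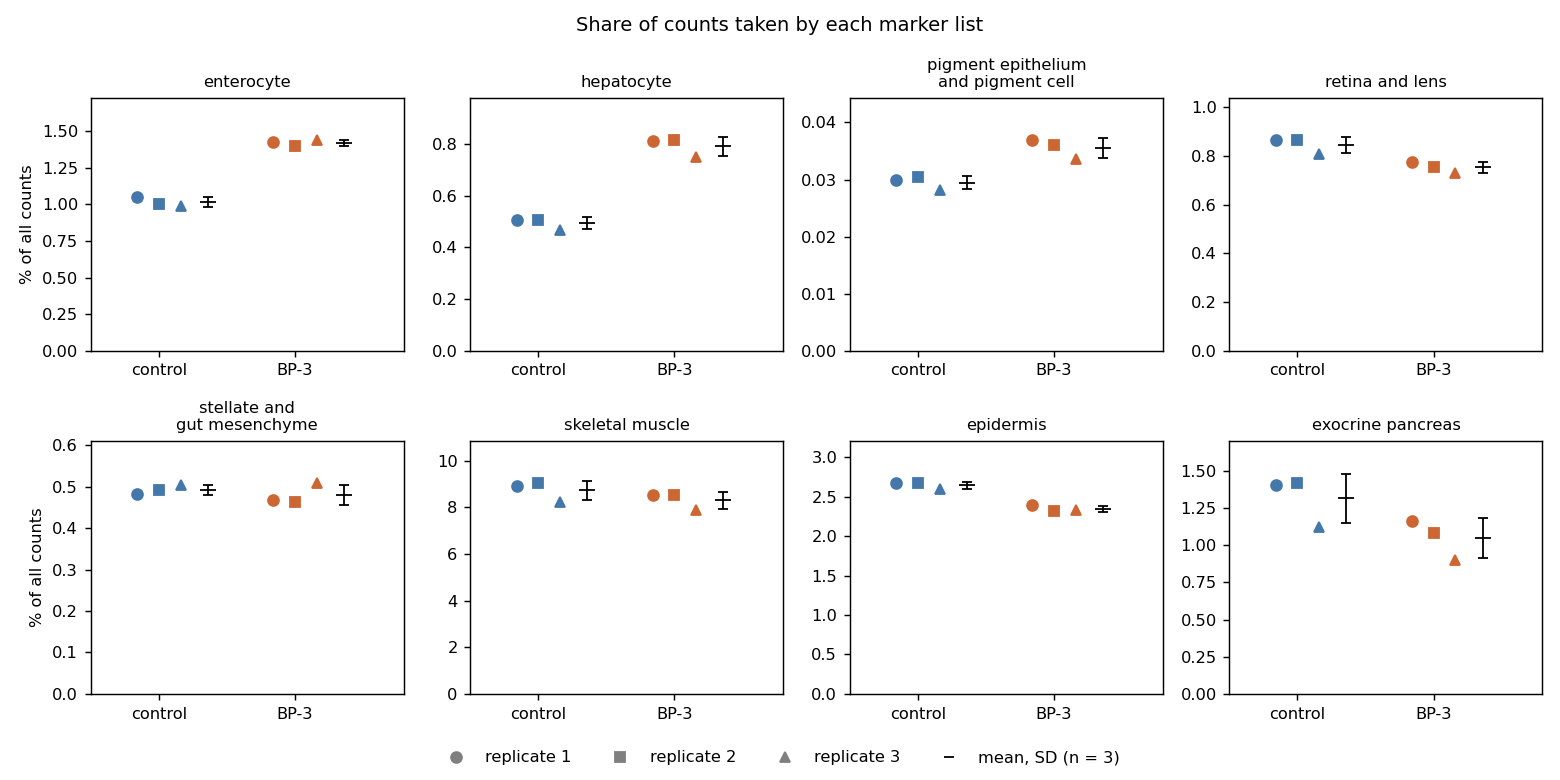
Percent of all counts taken by the markers of each of 8 tissues in the 3 control and 3 BP-3 libraries, with the mean and SD of each group beside the points and each axis starting at 0. Enterocyte, hepatocyte and pigment epithelium and pigment cell shares are higher in every BP-3 library, by mean ratios of 1.40, 1.60 and 1.21. The epidermis and the retina and lens shares are lower in every BP-3 library.

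Each of the 10 genes was also set against the summed enterocyte marker counts of its own library. On this scale the median of all 23167 tested rows shifted to -0.48 (log2, BP-3 minus control), and in 66.3% of rows all exposed libraries lay below all controls, while in 1.65% they lay above. The genes fell into 3 sets. Those with all exposed libraries above all controls were bco1l, higher by 0.91 on the log2 scale, and rbp2b, higher by 0.51. Overlap was seen for 5 genes, among them rbp4 at -0.04, aldh1a2 at 0.01 and stra6 at 0.02. In lrata and cyp26a1, which overlapped too, the differences were -0.18 and -0.31. Below all controls were bco1 at -0.35, rbp2a at -0.24 and dhrs3a at -0.57. Which cells expressed each gene was not measured. Shares of the pigment epithelium and pigment cell markers and of the mesenchyme markers had BP-3 over control ratios of 1.21 and 0.97. An exact two-sided permutation test gave p = 0.1, the smallest possible, for the 5 genes without overlap and between 0.3 and 1 for the others (0.2 for the former and between 0.43 and 1 for the latter after adjustment over the 10 genes).

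Against the hepatocyte markers, which had the larger rise, bco1l and rbp2b were again higher in every exposed library, by 0.72 and 0.32, as in 0.786% of all tested rows. The other 8 genes lay below all controls, as did 77.5% of all rows, whose median was -0.67. For rbp4, the liver-secreted carrier, the difference from the hepatocyte markers was -0.24, and 100 marker counts stood beside 21.2, 20.4 and 18.8 rbp4 counts in BP-3 and beside 24.5, 24.3 and 22.3 in control. The rise of rbp4 was thus below that of the summed markers, which a few abundant genes dominate, and level with their median. The rises of bco1l and rbp2b exceeded those of both marker sums and both marker medians. Single markers reached log2 fold changes of 0.92 among the enterocyte and 1.05 among the hepatocyte markers. The estimate of bco1l, 1.39, lay above both, while that of rbp2b, 0.99, lay below the highest hepatocyte marker.

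**Figure D5:**
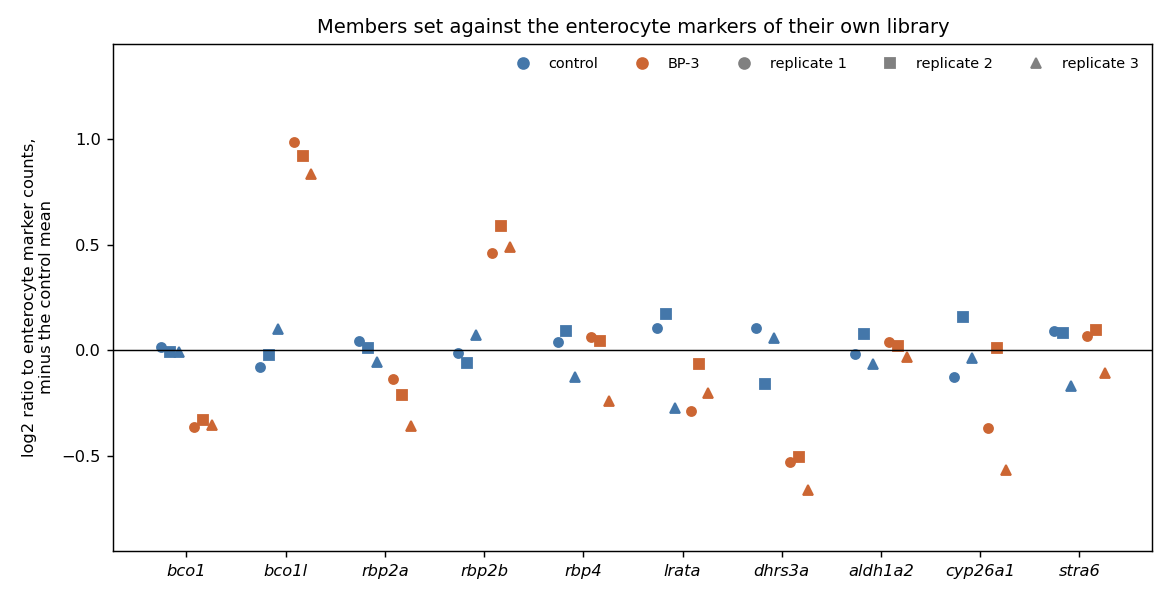
The log2 ratio of each gene's count to the summed enterocyte marker counts of the same library, minus the mean of the 3 controls (blue, control, and orange, BP-3, with 1 symbol per replicate). In BP-3 bco1l and rbp2b stay above the control libraries, bco1, rbp2a and dhrs3a lie below them, and rbp4, aldh1a2 and stra6 overlap them.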

How the data were processed

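The authors deposited raw read counts per gene name, 1 table per library, with no normalization, per the file headers. Per the labels' protocols, RNA was extracted with TRIzol and sequenced as paired ends. Per the submitters' processing notes the build was mm9, a mouse build, so no coordinates are given. No source used here states the aligner, the counter, the annotation or whether strand was used, so overlapping and antisense genes cannot be told apart.

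From these counts, rows were filtered with filterByExpr (23167 kept, 8886 removed), scaled with TMM and tested by quasi-likelihood with edgeR 4.0.16 (R 4.3.3), with Benjamini-Hochberg adjustment over all rows and a threshold of 0.05. Standard errors were taken as the absolute log2 fold change over the square root of F. Ratios within a library used counts plus 0.5. In 3 simulated data sets of the 23167 genes, 200 genes were changed in each. Changes of 1.5-fold were rises, those of 4-fold were falls, and those of 2-fold were rises or falls. The changed genes were drawn only from rows above a minimum mean count, and no effect shared by same-numbered libraries was included. The test called 53.3% of 1.5-fold, 81.3% of 2-fold and 98.7% of 4-fold changes, and 9.85% of its calls were false. In the real data 2446 rows passed, so these rates need not hold for them. The 10 genes, the lists and the tests were chosen with earlier results of these data known. Named genes are all 10, up to 4 called genes of each pathway list by smallest adjusted p, a panel of 16 (1 of them not reported here), and the most abundant marker of each list.

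Same-numbered libraries deviated together from their group means (correlations of 0.15, 0.13 and 0.38 for replicates 1 to 3), which was taken as pairing by number. The pairing comes from the data. A shift shared by the replicate 3 libraries alone would also give positive correlations among replicates 1 and 2, since deviations were from group means. Replicates 1 and 2 could be exchanged. BP-3 replicate 1 correlated as much with control replicate 2 (0.16), and BP-3 replicate 2 with control replicate 1 (0.15). Replicates differed by more than sampling noise (chi-square per degree of freedom of at least 5.34). Alternatives were DESeq2 1.42.0, limma-voom (limma 3.58.1), other scaling and filters, the replicate block and libraries left out. Python 3.11.15 and matplotlib 3.10.9 drew the figures. The Poisson interval covers counting error only, since PCR copies of 1 molecule are counted again.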

Additional observations from a re-analysis of the deposited data

How the results depend on the processing

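The number of rows passing, 2446, became 5026 with the replicate block, 3894 in the fit lacking both replicate 3 libraries and 435 with BP-3 replicate 1 as the only exposed library, and lay between 1084 and 2494 when each library was left out. Of the 10 retinoid genes 2 passed in the fit with that single exposed library, and between 3 and 5 when each library was left out. For the wider pathway, 15 became 26 with the block, 24 without both replicate 3 libraries, 3 with the single exposed library, and between 6 and 16 when each library was left out. Calls for bco1l and rbp2b held in all 15 alternatives, with log2 fold changes from 1.34 to 1.49 and from 0.96 to 1.02. For dhrs3a the estimate ranged from -0.17 to 0.0048 when each library was left out, turning positive without control replicate 1. The replicate block changed no call of the 10 genes apart from rbp2a. Scaling by DESeq2 size factors or upper quartile, other filters, DESeq2 and limma-voom changed no call of the 10. With hepatocyte in place of enterocyte markers, the log2 difference was -0.54 for bco1, 0.72 for bco1l, -0.43 for rbp2a, 0.32 for rbp2b, -0.24 for rbp4, -0.38 for lrata and -0.76 for dhrs3a, and it turned to -0.19 for aldh1a2 and -0.18 for stra6. Without apobb.1 among the enterocyte markers it was -0.29 for bco1 and 0.071 for aldh1a2. The cause of these shifts was not tested. Counts were lowest for lrata and cyp26a1, whose lowest libraries held 75 and 164 counts. The SD of cyp26a1 was 20.1% of its mean in BP-3 and 10.4% in control, beside 7.81% from counting error at its lowest count. For lrata the same figures were 6.44%, 19.9% and 11.5%.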
